A study of Caenorhabditis elegans with 2 samples.

Results

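The 358 regions described here are the X-linked members of the 2000 strongest VAB-15 regions in Caenorhabditis elegans larvae. They were chosen by the authors' signal value and by chromosome: the 2000 regions of highest signal were taken from the deposited pooled list of 30000 regions, and those on the X chromosome were kept. The other 1642 strong regions lie on the autosomes and serve as the comparison, and 4563 of all 30000 regions lie on X. The study profiled VAB-15 by chromatin immunoprecipitation and sequencing (ChIP-seq) with an antibody against GFP. It held 1 group of 2 biological replicates: whole L1 larvae (the first larval stage) of strain XIL99, of mixed sex, starved after bleaching, whose VAB-15 carried GFP and FLAG at its C terminus after a CRISPR insertion into the gene. No untagged or mutant worms were analysed here, every sample carried the tag, and whole larvae mix all cell types, so a signal cannot be assigned to a cell type. The sequencing depth is unknown, since the lists hold no read counts.

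VAB-15 is a homeodomain transcription factor of the Msx class needed for touch receptor neurons to form. Proteins with this domain commonly recognise short AT-rich sites with a TAAT core. The X chromosome is set apart in this species by dosage compensation, in which a condensin-like complex assembles on both X chromosomes of hermaphrodites and lowers their transcription. The complex is loaded at recruitment sites on X that hold a longer motif, of which GCGCAGG is a core. X also carries few genes of germline and housekeeping function, few operons, and a large share of the tRNA genes of the genome.

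The signal, which chose the regions, spanned 84.35 to 403.3 on X with a median of 107.7, and 84.33 to 1191.2 on the autosomes with a median of 107.6. The highest X signals lay near the gene of the tagged protein itself and near puf-9, which encodes a Pumilio-family RNA-binding protein. Windows of 50 bases on either side of the summit (the point of highest signal in a region) are shown for the 5 strongest X regions, all of which were among the 2000 highest of both replicates, and for the remaining regions at vab-15. Sequences were read from the RefSeq reference genome WBcel235, which is the build ce11 of the deposited lists. They are printed on the plus strand, with TAATTG or its reverse complement CAATTA in capitals.
vab-15, upstream region, chrX:9846071-9846171, plus strand: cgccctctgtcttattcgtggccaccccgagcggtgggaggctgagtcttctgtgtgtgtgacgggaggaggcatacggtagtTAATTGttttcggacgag
puf-9, chrX:5841271-5841371, plus strand: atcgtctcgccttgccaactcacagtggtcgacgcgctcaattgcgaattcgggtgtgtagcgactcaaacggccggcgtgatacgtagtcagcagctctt
T04F8.2, chrX:11656833-11656933, plus strand: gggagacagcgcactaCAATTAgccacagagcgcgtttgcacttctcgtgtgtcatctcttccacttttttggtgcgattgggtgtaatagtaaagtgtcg
vab-15, stronger intronic region, chrX:9848370-9848470, plus strand: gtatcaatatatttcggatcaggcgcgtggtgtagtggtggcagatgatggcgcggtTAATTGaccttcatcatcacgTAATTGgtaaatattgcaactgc
C03A3.2, chrX:11262438-11262538, plus strand: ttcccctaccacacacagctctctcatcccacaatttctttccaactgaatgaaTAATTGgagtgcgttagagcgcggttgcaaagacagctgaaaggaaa
vab-15, weaker intronic region, chrX:9848577-9848677, plus strand: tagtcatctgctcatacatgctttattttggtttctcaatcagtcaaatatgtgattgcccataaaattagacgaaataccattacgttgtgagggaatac
vab-15, promoter region, chrX:9846820-9846920, plus strand: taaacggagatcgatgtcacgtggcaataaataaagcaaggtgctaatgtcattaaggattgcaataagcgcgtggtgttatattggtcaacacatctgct
The upstream region at vab-15 held 1 match, the stronger intronic region 2, T04F8.2 1 and C03A3.2 1, whereas the puf-9 window and the other windows at vab-15 held none. The search covered both strands, and a missing match says only that these letters are not in this window.

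The 4 regions at vab-15 were the most at any gene on X. The gene lies on the plus strand at chromosome X, 9847275 to 9849805. Its strongest region, 1154 bp upstream of the annotated transcription start site (TSS) and intergenic, had a pooled signal of 403.3, at rank 16 of 30000. Its ranks were 20 in replicate 1 and 5 in replicate 2. The intronic region with the pair of TAATTG matches, 1145 bp downstream of the TSS, had a signal of 261.5 and ranked 144 and 30 in the replicates. It overlaps the weaker intronic region, with a signal of 194.2 and ranks of 489 and 50, so these are not separate observations. The promoter region, 405 bp upstream, had a signal of 118.6 and ranks of 883 and 922. All 4 were thus within the 2000 highest of both replicates. The tag sits at this gene in every sample. Whether it bears on the signal there was not tested.

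X held 17.9% of the 2000 strong regions (exact Clopper-Pearson 95% interval 16.2 to 19.7, for counting error over regions), 15.5% of the weaker regions and 17.7% of the bases of the 6 chromosomes. The weaker regions are the 15000 of lowest signal in the same list less those that overlap a strong one, which left 2290 on X and 12530 on autosomes. In density, X had 20.2 strong regions per Mb, between 13.8 on chromosome V and 26.99 on chromosome III. At the top of the ranking X held 7 of the 100 strongest regions, 77 of the 500 strongest (15.4%), 20.6% of ranks 501 to 1000 and 178 of ranks 1001 to 2000 (17.8%). Below rank 2000 its share was 15.1% to rank 5000 and 14.3% to rank 15000. The replicates' own lists gave 6 of the 100 strongest in replicate 1 and 12 in replicate 2, and 77 of the 500 strongest in each. Among the 2000 highest, X held 338 regions in replicate 1 (16.9%, against 15.5% of ranks 15001 to 30000). In replicate 2 the order was the other way round, with 311 of the 2000 highest (15.55%) and 16.71% of ranks 15001 to 30000. The authors' lists on the earlier build ce10 gave 359 X regions in the pooled 2000. These shares follow from the signal that chose the regions and are given as description.

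**Figure D1:**
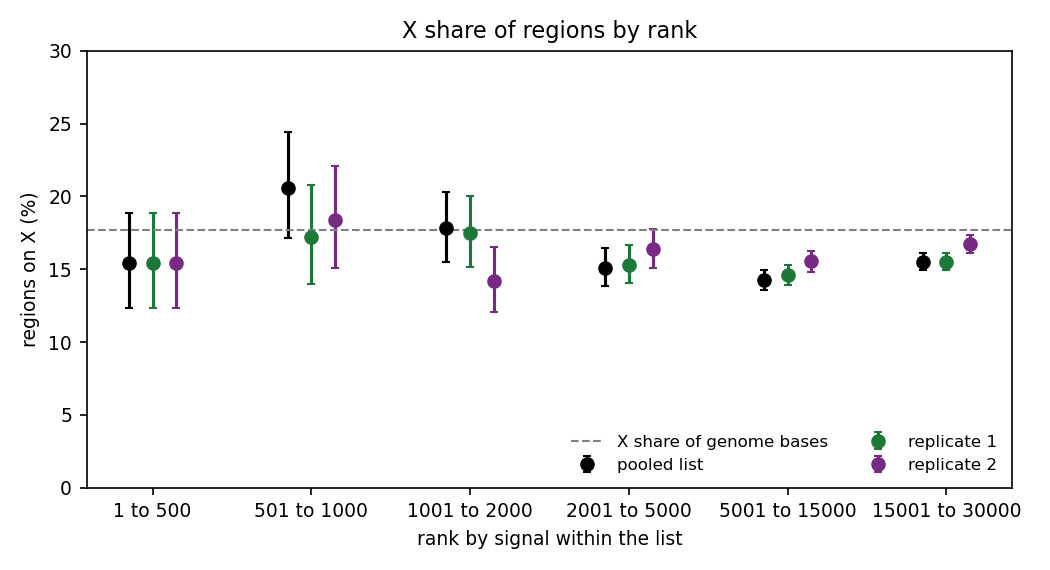
Share of regions on X (y axis, percent) by band of signal rank (x axis) in the pooled, replicate 1 and replicate 2 lists, with exact 95% intervals; the dashed line is the share of genome bases on X, 17.7%. In the pooled list the share is 15.4% over ranks 1 to 500, 20.6% over ranks 501 to 1000 and 15.5% over ranks 15001 to 30000.

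Strong X regions lay less often in promoters and more often between genes than strong autosomal ones. A promoter is here the stretch from 1 to 1000 bp upstream of the TSS of a protein-coding gene. It held 149 of the 358 X summits (41.6%) and 953 of the 1642 autosomal summits (58.04%), an odds ratio of 0.515 (95% interval 0.406 to 0.654, Fisher's exact test, two-sided, adjusted p = 7.6e-08 over 7 location classes). Intergenic summits were 110 on X (30.7%) and 280 on autosomes (17.1%), an odds ratio of 2.16 (1.65 to 2.81, Fisher's exact test, adjusted p = 7.6e-08). Summits in noncoding genes were also more frequent on X, 17 (4.75%) against 34 (2.07%), with an odds ratio of 2.36 (Fisher's exact test, adjusted p = 0.0191). That call was not kept with the regions within 500 bp of tRNA genes left out (odds ratio 1.71) or with only the regions high in both replicates (2.27). Coding exons held 11 X summits (3.07%) and 100 autosomal ones (6.09%), with an odds ratio of 0.489 (Fisher's exact test, adjusted p = 0.0380). It did not hold in 6 alternatives, among them without replicate 2 (odds ratio 0.668). Introns held 66 X summits (18.4%) and 254 autosomal ones (15.5%), a difference that did not pass (odds ratio 1.24, between 0.901 and 1.68 at 95%, adjusted p = 0.247 by Fisher's exact test). It passed with the 990 highest regions (35 of 177 on X and 94 of 813 on autosomes, odds ratio 1.89) and with promoters of 2000 bp (1.49). The 5′ UTRs held 3 on X and 12 on autosomes, and the 3′ UTRs 2 and 9. In all these tests regions are the units. They are not biological replicates, so the p-values measure counts of regions and not the spread between worm samples.

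X has 154 protein-coding genes per Mb and the autosomes 188 to 239. The strong regions were therefore also set beside the weaker regions of the same chromosomes, which are low-signal regions of the authors' list and not random sequence. Weaker regions were in promoters in 19.7% of cases on X and 22.2% on autosomes. The odds of a promoter location were thus 2.92 times higher in strong than in weaker regions on X, and 4.84 times on the autosomes. The ratio of these odds ratios was 0.602 (0.466 to 0.779, likelihood ratio chi-square test of the interaction in a binomial model, adjusted p = 7.4e-04). With the strong regions taken from the replicate 2 list alone it was 0.751, and with the 4000 highest regions 0.798, and both missed the threshold. Intergenic locations were common on X among weaker regions too, 22.4% on X against 14.2% on autosomes. Their contrast of strong to weaker regions did not differ detectably between X and autosomes (ratio 1.23, 0.932 to 1.64, chi-square test, adjusted p = 0.253), although it passed without replicate 1 (1.51).

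**Figure D2:**
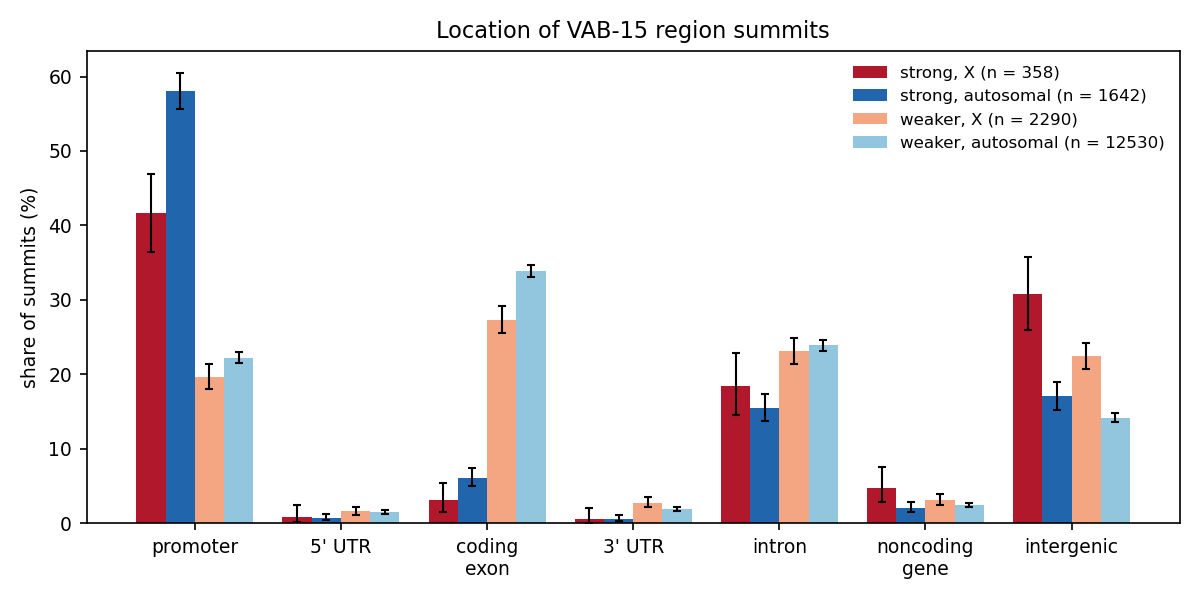
Share of summits (percent) in each of 7 location classes for strong X, strong autosomal, weaker X and weaker autosomal regions, with exact 95% intervals. Promoters hold 41.6% of strong X and 58.04% of strong autosomal summits, and intergenic sequence 30.7% and 17.1%.

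The distance to the nearest protein-coding TSS showed the same difference without a fixed promoter size. Its median was 1009 bp in strong X regions and 388 bp in strong autosomal ones, against 1430.5 bp and 1158 bp in the weaker regions. Within 500 bp of a TSS lay 125 X summits (34.9%) and 899 autosomal ones (54.8%), an odds ratio of 0.443 (0.347 to 0.566, Fisher's exact test, adjusted p = 1.9e-11). The gap between strong and weaker regions was smaller on X here as well, with a ratio of odds ratios of 0.520 (0.401 to 0.675, chi-square test, adjusted p = 1.2e-06). Without replicate 1 that ratio was 0.739 and no longer passed. Within 2000 bp lay 252 X summits (70.4%) and 1323 autosomal ones (80.6%), with an odds ratio of 0.573 (Fisher's exact test, adjusted p = 3.4e-05). The contrast with weaker regions did not pass (ratio 0.763, chi-square test, adjusted p = 0.0553). The remaining 106 X regions, over 2000 bp from any such TSS, comprised 67 intergenic, 27 intronic, 9 in noncoding genes and 3 in coding exons. Of these distal X regions 52.8% were among the 2000 highest of both replicates, and of the 319 distal autosomal regions 39.2%. For the regions within 2000 bp of a TSS the shares were 46.4% on X and 48.1% on autosomes. Both replicates made the pooled signal that chose the regions, so these shares are description. GC content differed little, with 45.4% ± 7.70 in the X windows and 45.2% ± 7.51 in the autosomal ones (mean and SD over regions), against 39.8% and 40.4% in the weaker regions.

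**Figure D3:**
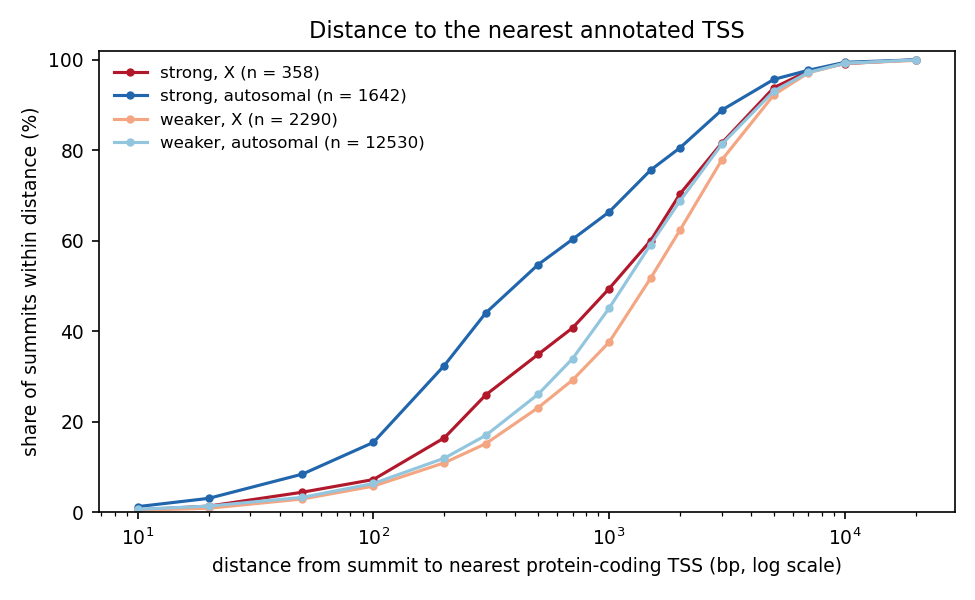
Cumulative share of summits (y axis, percent) by distance to the nearest protein-coding TSS (x axis, bp, log scale) for the strong X, strong autosomal, weaker X and weaker autosomal regions. The strong X curve stands at 34.9% at 500 bp, the strong autosomal one at 54.8%.

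The promoters bound on X were seldom shared by a pair of divergent genes. A divergent promoter is one whose summit lies within 1000 bp upstream of the TSSs of genes on opposite strands. Of the X promoter summits 10 of 149 (6.71%) were of this kind, against 303 of 953 (31.8%) on autosomes, an odds ratio of 0.154 (0.0715 to 0.298, Fisher's exact test, p = 4.2e-12). Divergent promoters were also fewer among weaker X promoter regions (3.78%) than among weaker autosomal ones (8.83%). The ratio of the contrasts was 0.381 (0.167 to 0.870, chi-square test, p = 0.0195), and it missed the threshold in 5 alternatives, among them without replicate 1 (0.615). The strongest of the 10 lay between glit-1 and dnj-14, 168 bp upstream of glit-1, with a signal of 179.7. The next lay between trap-2, which encodes a subunit of the translocon-associated complex of the endoplasmic reticulum, and ile-2, with a signal of 162.2. The others were at nmat-1 and ucr-2.1, rab-14 and nipi-3, stau-1 and sec-22, gst-42 and D1053.2, mboa-7 and git-1, asg-2 and glr-6, tbc-1 and flwr-1, and D1005.10 and dhs-25. These 10 were named after their values were seen.

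A tRNA gene lay near a larger share of X regions than of autosomal ones, and a gene for a small nuclear or nucleolar RNA near a smaller share. A tRNA gene lay within 500 bp of 34 X summits (9.50%) and of 49 autosomal ones (2.98%), an odds ratio of 3.41 (2.10 to 5.49, Fisher's exact test, adjusted p = 1.4e-06 over 3 kinds of gene). X holds 276 of the 612 tRNA genes (45.1%), and the same excess stood in the weaker regions, with 1.97% on X and 0.463% on autosomes. The ratio of the contrasts was 0.792 (0.435 to 1.44, chi-square test, adjusted p = 0.444). Per gene the shares were close: 43 of the 276 X tRNA genes (15.6%) and 52 of the 336 autosomal ones (15.5%) had a strong region within 500 bp. The strongest X region of this kind, with a signal of 226 at rank 130, lay with its summit inside a tRNA gene near C04A11.5, and 14 X summits in all lay inside a tRNA gene. The regions at ranks 346 and 347, both with a signal of 163.1, lay near tRNA genes, and their nearest protein-coding genes were xol-1 and ets-5. The xol-1 TSS was 4826 bp away, beyond the 2000 bp used to assign a gene; xol-1 encodes the switch of sex determination.

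Genes for small nuclear and nucleolar RNAs, which act in splicing and in the modification of ribosomal RNA, were nearly absent from the X set. One lay within 500 bp of 1 X summit (0.279%), at sdha-1 with a signal of 103.3, and of 76 autosomal summits (4.63%). The odds ratio was 0.0577 (0.00144 to 0.334, Fisher's exact test, adjusted p = 8.4e-06). X holds 36 such genes and the autosomes 439. In weaker regions the shares were 0.437% on X and 0.742% on autosomes, and the ratio of the contrasts was 0.0984 (0.0123 to 0.789, chi-square test, adjusted p = 0.0129). That ratio rests on 1 X region. It missed the threshold with distances of 200 bp (0.141) and of 1000 bp (0.287). MicroRNA genes lay near 2 X summits and 11 autosomal ones, and that comparison did not pass (odds ratio 0.833, 0.0894 to 3.84, Fisher's exact test, adjusted p = 1).

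**Figure D4:**
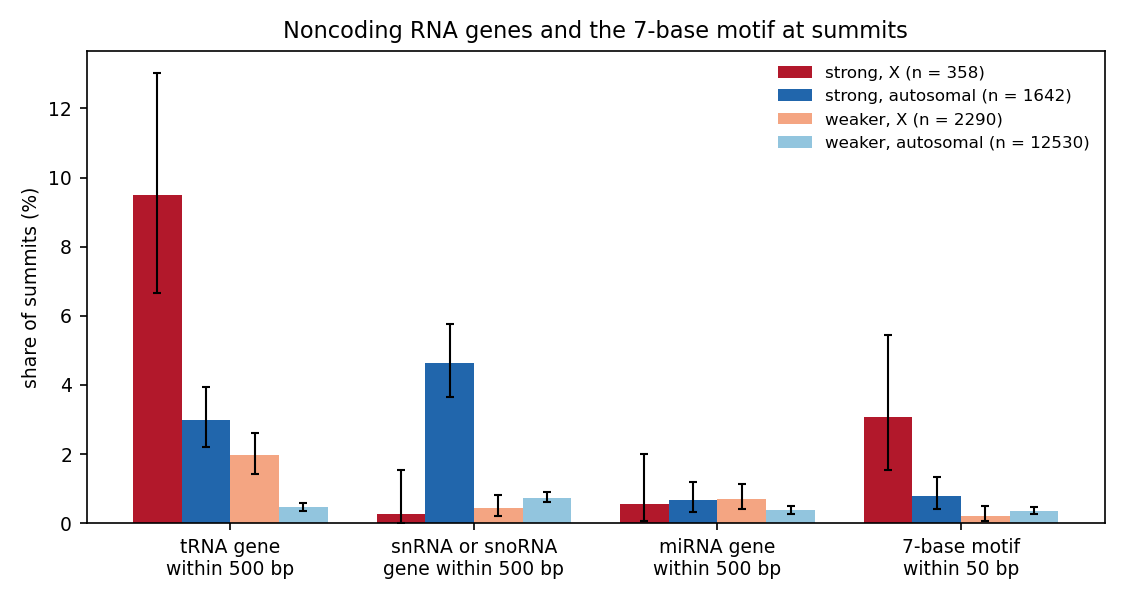
Share of summits (y axis, percent) with a tRNA gene, an snRNA or snoRNA gene or a miRNA gene within 500 bp, or GCGCAGG (the 7-base motif) within 50 bp, for strong and weaker regions of X and autosomes, with exact 95% intervals. Strong X regions stand above strong autosomal ones for tRNA genes (9.50% and 2.98%) and GCGCAGG (3.07% and 0.792%), and below for snRNA or snoRNA genes (0.279% and 4.63%).

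Of 5 short motifs, GCGCAGG, the core of the motif known from the recruitment sites of dosage compensation, differed between X and autosomes. Each motif was searched on both strands within 50 bp of the summit. GCGCAGG was in 11 X windows (3.07%) and 13 autosomal ones (0.792%), an odds ratio of 3.97 (1.60 to 9.69, Fisher's exact test, adjusted p = 0.0070). It was in 0.218% of the weaker X windows, 0.351% of the weaker autosomal windows and 0.39% of all 30000. The ratio of the contrasts was 6.40 (1.87 to 21.9, chi-square test, adjusted p = 0.0098), and without replicate 1 it was 5.85 and missed the threshold. Over the whole genome the motif was no denser on X, with 20.2 occurrences per Mb on X and 19.9 on the autosomes. The homeodomain core TAATTG was in 38 X windows (10.6%) and 148 autosomal ones (9.01%), against 7.09% of all windows. The X and autosomal shares did not differ detectably (odds ratio 1.20, 0.800 to 1.76, Fisher's exact test, adjusted p = 0.610). The GA repeat GAGAGA was in 75 X windows (20.9%) and 333 autosomal ones (20.3%), against 9.38% of all windows. GAGCGC was in 31 and 182 (2.77% of all windows), and ACGCAG, which shares CGCAG with GCGCAGG, in 37 and 183 (3.77% of all windows). None of these passed between X and autosomes (adjusted p = 0.773, 0.467 and 0.773 by Fisher's exact test).

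The 13 occurrences of GCGCAGG in the 11 X windows are shown with 12 bases on either side, on the strand that reads GCGCAGG (in capitals), because their surroundings resemble each other. Each is named by the nearest protein-coding gene, in order of signal. The regions at gtr-1 and cest-16 hold 2 occurrences each, and the pair at Y41G9A.17 overlap each other.
W02H3.3, chrX:11094215-11094245, minus strand: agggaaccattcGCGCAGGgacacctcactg
F20B6.9, chrX:4209255-4209285, minus strand: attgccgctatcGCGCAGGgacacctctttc
gtr-1, first match, chrX:806662-806692, plus strand: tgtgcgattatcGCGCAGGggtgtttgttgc
gtr-1, second match, chrX:806738-806768, plus strand: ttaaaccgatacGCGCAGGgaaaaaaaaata
cest-16, first match, chrX:6296536-6296566, plus strand: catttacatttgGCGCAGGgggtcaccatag
cest-16, second match, chrX:6296564-6296594, plus strand: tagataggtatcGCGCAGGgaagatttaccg
F22H10.2, chrX:16682088-16682118, minus strand: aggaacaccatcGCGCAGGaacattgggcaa
sec-16A.2, chrX:8286901-8286931, plus strand: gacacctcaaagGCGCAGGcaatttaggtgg
ins-39, chrX:1345044-1345074, plus strand: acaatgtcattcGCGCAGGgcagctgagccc
Y41G9A.17, first region, chrX:2997112-2997142, minus strand: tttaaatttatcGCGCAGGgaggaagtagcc
F19H6.5, chrX:12363028-12363058, minus strand: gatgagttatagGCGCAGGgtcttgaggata
Y41G9A.17, second region, chrX:2997287-2997317, minus strand: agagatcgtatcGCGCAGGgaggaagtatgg
gcc-1, chrX:3159715-3159745, minus strand: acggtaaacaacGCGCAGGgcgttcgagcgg
G followed the motif directly in 11 of the 13 X occurrences and in 0 of the 13 autosomal ones. C preceded it in 10 on X and 3 on autosomes, T stood 2 bases before it in 9 and 4, A stood 3 bases before it in 8 and 4, and A stood 2 bases after it in 8 and 3. This comparison was made after the sequences were seen, and no test is given for it.

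The X regions with GCGCAGG lay high in the ranking and often far from a TSS. Of the 11, 8 were among the 500 strongest regions, where X holds 77. Their signal had a median of 167.2, against 106.9 in the X regions without the motif. The median rank was 327 in the 11 X regions and 547 in the 13 autosomal regions with the motif. The best ranks were 158 and 42. Signal chose the regions, so these values are given as description. The nearest TSS was over 2000 bp away in 6 of the 11 X regions, against 29.6% of all strong X regions. The 6 include the overlapping pair at Y41G9A.17. On autosomes it was that far in 1 of the 13 with the motif and in 19.4% of all strong regions. Promoters held 3 of the 11 and 10 of the 13, against 41.6% and 58.04% of all strong X and autosomal regions. The strongest X region with the motif was intergenic, 3973 bp from the TSS of W02H3.3. It had a signal of 209.8 and ranks of 114 and 818 in the replicates. F20B6.9 had a signal of 209.1 and ranks of 145 and 340, gtr-1 a signal of 202.5 with 125.7 and 75.26 in the replicates, and cest-16 a signal of 199.1 and ranks of 245 and 78. Those 4 and 5 others were among the 2000 highest of both replicates. The exceptions were F19H6.5, not matched in replicate 2, and gcc-1, at ranks 2191 and 4640. The overlapping regions at Y41G9A.17 matched the same replicate 2 region, at rank 68. No sample without the tag was analysed here, and whether this signal depends on VAB-15 was not tested.

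The genes nearest the other strong X regions were of varied function. Among the 20 strongest X regions, with signals from 200.2 to 403.3, all were within the 2000 highest of both replicates, and 7 lay over 2000 bp from a TSS. The region at puf-9 had a pooled signal of 398.8, 271 bp upstream of the TSS, with signals of 272.3 in replicate 1 and 116.4 in replicate 2. T04F8.2 had a signal of 284.2, 314 bp upstream, and C03A3.2 a signal of 260.7, 360 bp upstream. F55A4.13, with a signal of 253.8, was the nearest gene at a distance of 6214 bp. The region nearest dct-1, which encodes a mitophagy receptor, had a signal of 244.3 at 2655 bp. The promoter of rpl-11.2, a ribosomal protein gene, had a signal of 242.3. Promoter regions at C18B12.4 (238.3), sym-4 (211.4) and serp-1.1 (211.3), an intronic region at M60.4 (238.9) and an intergenic one 1900 bp upstream of the nuclear hormone receptor gene nhr-48 (223.3) followed. F56C3.1 (236.9), C30E1.4 (224.7) and C41A3.2 (200.2) were nearest at over 2000 bp.

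Of the 2731 protein-coding genes on X, 224 (8.2%) had the nearest TSS within 2000 bp of a strong region, against 1191 of 17242 autosomal genes (6.91%). Counting every gene with a TSS in that distance gave 269 X genes (9.85%). These shares are the background for the gene lists, whose members were chosen with earlier results of these data known and which were not tested. Several X genes had more than 1 region: 23 of the 224 had at least 2, beside 109 of the 1191 autosomal genes, and vab-15, sma-9, ftt-2 and kin-20 at least 3. The gene ftt-2, which encodes a 14-3-3 protein, had signals from 94.71 to 109.

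Among heterochronic genes, which time the larval stages, 5 of 5 on X and 2 of 7 on autosomes had a strong region. The list was put together with earlier results known, so this count is a description. The puf-9 region is given above. The nuclear protein gene lin-14 had an intronic region with a signal of 125.7 and ranks of 1279 and 405 in the replicates. The nuclear receptor gene daf-12 had an intronic region of 112.7, at rank 575 in replicate 1 and not matched in replicate 2. The zinc-finger gene hbl-1 had a promoter region of 102.1, at ranks 888 and 7068. The casein kinase gene kin-20 had 3 regions of 86.96 to 97.39. With only regions high in both replicates 3 of the 5 were left, and without replicate 1 likewise 3. All X genes with a strong region also became fewer with only regions high in both replicates.

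Other regulators on X followed. Their counts stand beside 8.2% of all X genes and 6.91% of autosomal ones and were not tested. Nuclear hormone receptor genes had strong regions in 7 of 27 on X (25.9%) and 19 of 247 on autosomes (7.69%). The strongest on X were nhr-48 (223.3 and 126.4), nhr-14 (135.8 and 96.57), nhr-32 (132.3 and 98.40) and daf-12 (112.7). In replicates 1 and 2 the weaker nhr-48 region ranked 352 and 23151. The stronger nhr-32 region ranked 234 and 14310, and the weaker one 6006 and 323. The daf-12 region was not matched in replicate 2. With only regions high in both replicates 3 of the 27 were left, and all X genes with a strong region became fewer as well. Genes of TGF-beta, Notch and EGF-Ras signalling had them in 6 of 16 on X and 7 of 44 on autosomes. The strongest on X were at egl-15, an FGF receptor (175.2), sma-9, a zinc-finger factor of the BMP pathway (123.6 to 140), egl-17, an FGF ligand (138.3), and osm-11, a secreted Notch co-ligand (107.3 and 95.85). With the 990 highest regions 3 of the 16 were left, and here too all X genes with a strong region became fewer. Homeobox genes had 2 of 27 on X (7.41%, near the share of all X genes) and 5 of 71 on autosomes. Those on X were vab-15 and the LIM homeobox gene ceh-14 (94.74). The ceh-14 region had its summit in a noncoding gene, 1872 bp upstream of the ceh-14 TSS. It ranked 3141 and 758 in the replicates. Touch receptor neuron genes and their regulators had 2 of 12 on X and 2 of 16 on autosomes, vab-15 and lin-14. Genes for basic helix-loop-helix and forkhead factors had 2 of 14 on X and 5 of 40 on autosomes. Those on X were mdl-1 (144.3 and 136.2) and hlh-13 (87.08, at ranks 1042 and 15369 in the replicates).

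The lists of neuronal, sensory and sex determination genes were not tested. Their counts stand beside 8.2% of all X genes and 6.91% of autosomal ones. Ion channels and neurotransmitter receptors had 1 of 74 on X (1.35%), the calcium channel gene unc-2 with a promoter signal of 111, and 11 of 184 on autosomes (5.98%). Neuropeptide and insulin genes had 1 of 36 on X, ins-39 (160.9), one of the regions with GCGCAGG, and 3.57% of those on autosomes. Pan-neuronal and transmitter identity genes had 0 of 7 on X and 5 of 39 on autosomes. Chemoreceptors had 1 of 34 on X (2.94%), srd-43 with a signal of 113.3, and 9 of 1331 on autosomes (0.676%). Genes of axon guidance and adhesion had 2 of 25 on X (8%, near the share of all X genes) and 5 of 67 on autosomes. Those on X were zig-3 (164.7) and the syndecan sdn-1 (106.6). Sex determination and dosage compensation genes had 0 of 6 on X and 0 of 21 on autosomes. With 7 and 6 genes on X, the pan-neuronal and sex determination lists are too short for a count of 0 to be read as a lack.

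Of the structural and housekeeping lists, 2 have few members on X. These are ribosomal proteins (2 of 77 genes) and the list of proteasome, respiratory chain and mitochondrial ribosome genes (3 of 134). X holds 30 of the 175 cuticle collagens and 17 of the 54 muscle and junction genes. Cuticle collagens had 1 of 30 on X, col-181, with a signal of 175.8 at a summit that lies near a tRNA gene, and 6 of 145 on autosomes. Muscle and epidermal junction genes had 3 of 17 on X and 3 of 37 on autosomes: the junction gene dlg-1 (93.88), the troponin I gene tni-1 (85.88, at ranks 26468 and 625 in the replicates) and the LIM protein gene unc-97 (84.35). Ribosomal protein genes had 1 of 2 on X, rpl-11.2, and 28 of 75 on autosomes. Genes of the proteasome, the respiratory chain and the mitochondrial ribosome had 1 of 3 on X, the succinate dehydrogenase subunit sdha-1 (103.3), and 32 of 131 on autosomes.

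The X regions were spread along the chromosome. Cut into 3 equal parts from left to right, X held 31.0%, 35.8% and 33.2% of them. The 17 full 1 Mb bins held 13 to 27, with a median of 21. The middle part of a chromosome held 35.8% of the X regions and 39.9% of the autosomal ones, a difference that did not pass (odds ratio 0.839, 0.656 to 1.07, Fisher's exact test, p = 0.152). The median gap between neighbouring summits was 28255 bp on X and 26360 bp on the autosomes, and the longest on X was 460827 bp. Merging overlapping regions removed 12 and left 346.

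Replicate support was of similar size on X and autosomes, given as description since both replicates made the pooled signal. In replicate 1, 279 of the 358 X regions (77.9%) were among the 2000 highest, against 80.5% of the autosomal ones. In replicate 2, 220 (61.5%) were, against 60.4%. Both replicates ranked 173 X regions this high (48.3%, against 46.4% on autosomes), and 32 were in neither list's top 2000 (8.94%, against 5.48%). Over the 339 X regions found in both lists, Spearman's rho between the replicates' signals was 0.320, and over 1550 autosomal regions 0.371. These regions share their 2 libraries, and the selection on pooled signal bounds them. In the replicates' own lists the median signal over 30000 regions was 30.21 in replicate 1 and 17.19 in replicate 2. The median X region ranked 1098 in replicate 1 and 1293 in replicate 2. The weakest X members, at ranks 1991, 1993 and 1998, lay near gly-13 (84.47), chup-1 (84.45) and unc-97 (84.35). The first X regions outside, at ranks 2003, 2008 and 2017, lay near F46H5.3 (84.29), tsct-1 (84.25) and peb-1 (84.07).

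**Figure D5:**
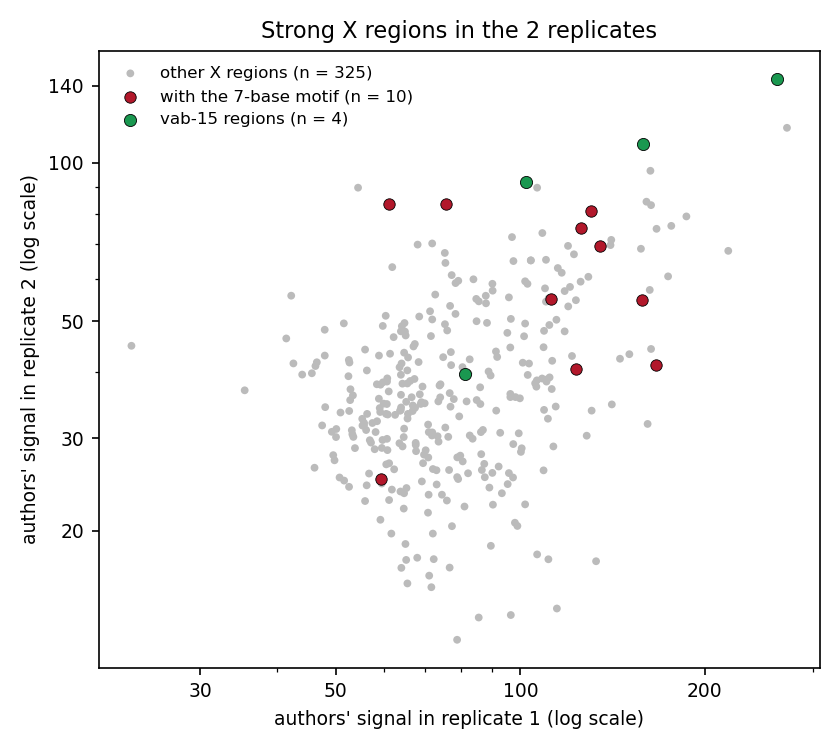
Signal of the X regions in replicate 1 (x axis, log scale) and replicate 2 (y axis, log scale), each point a region found in both lists, with the 4 regions at vab-15 and the 10 with GCGCAGG (the 7-base motif) marked. The upstream vab-15 region has 262.6 in replicate 1 and 144.2 in replicate 2, and Spearman's rho over the 339 regions is 0.320.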

How the data were processed

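VAB-15 ChIP-seq peak lists from 2 biological replicates of 1 group of larvae were used. The authors deposited, per replicate and pooled, 30000 regions on ce10 and ce11 and, on both builds, an optimal set, which holds 990 regions on ce11. Each region carries a signal value made by the authors and a deposited −log10 q-value. All 2000 strong regions had q at or under 0.01. The deposited signal was used only to rank or describe regions within a list. The sources used here name no aligner, peak caller or threshold, the control was not analysed here, and the depth is unknown.

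Genes came from Ensembl release 115 (WBcel235), sequence from the RefSeq genome of that build. Each summit took the first location class that applied: promoter, then 5′ UTR, exon with coding sequence, 3′ UTR, intron, a noncoding gene, and otherwise intergenic. Strong regions were matched to a replicate's list at the pooled summit. Shares were compared by Fisher's exact test (scipy 1.17.1). The contrast of strong with weaker regions was compared by a likelihood ratio chi-square test of the interaction in a logistic (binomial) model (statsmodels 0.14.6). The p-values were adjusted by the Benjamini-Hochberg method within each family of features. Calls needed an adjusted p under 0.05. Intervals cover counting error only. The procedures were tested on simulated independent counts. Shares as low as those of GCGCAGG in the weaker windows, or of snRNA and snoRNA genes on X, were not simulated.

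The X regions, the gene lists and the motifs were chosen with earlier results of these data known. Genes named are those of the 20 strongest X regions, vab-15, genes with 3 or more regions, all bound members of the sex determination, touch receptor, homeobox and heterochronic lists, the 4 strongest members of each other list, and 3 regions on either side of rank 2000. Genes at divergent promoters, at GCGCAGG and beside tRNA genes were named after their values were seen. Alternatives changed the number of strong regions, the replicate, merging, distances, windows, background and nearby tRNA genes. Only the last was added after seeing the data.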

Additional observations from a re-analysis of the deposited data

Results flagged for a closer look

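For 5 features the contrast of strong with weaker regions differed between X and the autosomes, by the likelihood ratio test of the difference itself. The ratio of the odds ratio on X to that on autosomes was 0.602 for promoters, 0.520 for summits within 500 bp of a TSS and 0.381 for divergent promoters. It was 0.0984 for nearby snRNA or snoRNA genes, where X has 1 strong region, and 6.40 for GCGCAGG. The first 3 overlap in the regions they count and are not separate observations.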

How the results depend on the processing

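Of 358 alternative values of the tests, 287 kept their direction and their side of the threshold, 19 lost the call and 12 gained one. The other 40 changed direction, all in comparisons that did not pass in the main setting nor under the alternative. The comparisons of strong X with strong autosomal regions for promoters, intergenic sequence, distance to the TSS, divergent promoters, tRNA genes, snRNA or snoRNA genes and GCGCAGG kept their calls in every alternative run. The contrasts with weaker regions were less stable. The promoter ratio was 0.798 with the 4000 highest regions and 0.696 to 0.751 with 1 replicate left out. The divergent promoter ratio was 0.525 with the 4000 highest, 0.476 with regions high in both replicates, 0.431 with promoters of 500 bp, 0.511 with all regions below rank 2000 as background, and 0.423 to 0.615 with 1 replicate left out. The snRNA and snoRNA ratio was 0.141 within 200 bp and 0.287 within 1000 bp, and could not be had with the 990 highest, without replicate 1 or in both replicates, where 0 X regions remained. The ratio for summits within 2000 bp of a TSS passed with the 990 highest (0.538), in both replicates (0.547) and with all regions below rank 2000 as background (0.730). With 1 replicate left out the intergenic ratio was 1.06 to 1.51 and the GCGCAGG ratio 5.85 to 6.68. Other contrasts that gained a call were introns with the 990 highest (1.98), GAGCGC with the 990 highest (0.484), noncoding genes with the 4000 highest (2.28) or 1 replicate left out (2.38 to 2.45), and coding exons without replicate 1 (0.470). The uncalled odds ratios of X to autosomal regions that crossed 1 were 0.806 (4000 highest), 0.955 (q at or under 0.01), 0.595 and 0.415 (promoters of 500 and 2000 bp) for 5′ UTRs. For 3′ UTRs they were 0.729 (4000 highest), 0.983 (promoters of 500 bp) and 0 (in both replicates, and promoters of 2000 bp), and for GAGAGA 0.907 (990 highest) and 0.794 (in both replicates). With 1 replicate left out they were 0.540 to 0.867 for 5′ UTRs, 0 to 0.983 for 3′ UTRs, 0.991 to 1.02 for GAGAGA and 0.858 to 1.03 for the middle part of the chromosome. The uncalled contrasts that crossed 1 were 1.37 (TAATTG), 2.17 (3′ UTR), 0.916 (GAGAGA) and 0.846 (ACGCAG) with the 990 highest, and 0.774 (5′ UTR) and 0.986 (intergenic) with the 4000 highest. In both replicates they were 1.30 (TAATTG) and 0.802 (GAGAGA), with q at or under 0.01 they were 0.906 (5′ UTR), 1.10 (3′ UTR) and 1.02 (TAATTG), and with promoters of 500 and 2000 bp 0.501 and 0.316 (5′ UTR). They were 1.06 (TAATTG) with all regions below rank 2000 as background, and for ACGCAG 0.996 after merging and 0.842 within 100 bp. With 1 replicate left out they were 0.276 to 0.866 (5′ UTR), 1.11 to 1.17 (TAATTG), 0.815 to 1.07 (GAGCGC), 0.946 to 1.12 (ACGCAG), 0.817 to 1.09 (tRNA genes) and 0.868 to 1.02 (middle part). The cause was not tested. Counts of list members on X with a strong region moved too. Heterochronic genes numbered 3 with the 990 highest and in both replicates, and 3 to 5 with 1 replicate left out. Signalling genes (TGF-beta, Notch, EGF-Ras) numbered 3 with the 990 highest, and nuclear hormone receptors 3 in both replicates. With the 990 highest or in both replicates, homeobox, helix-loop-helix and forkhead, and axon guidance genes numbered 1 each, and genes of the proteasome group 0. Muscle and junction genes numbered 0 with the 990 highest and 1 in both replicates, and ion channels and chemoreceptors 0 in both replicates. With the 4000 highest, axon guidance genes numbered 4, ion channels, neuropeptides and collagens 2 each, and sex determination and pan-neuronal genes 1 each. Counting every gene within 2000 bp gave 2 for the proteasome group, ion channels and chemoreceptors. With 1 replicate left out, homeobox and helix-loop-helix and forkhead genes numbered 1 to 2, and the proteasome group, ion channels and chemoreceptors 0 to 1. All X genes with a strong region numbered 111 with the 990 highest, 386 with the 4000 highest and 109 in both replicates, beside 224 of 2731 in the main setting. No paired analysis was possible because the series has only 1 group. Without read counts, depth cannot limit or weight any region.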
